A study of Mus musculus with 30 samples.

Results

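The last step of a sequential EDTA release of mouse small intestinal epithelium was examined by comparing fraction F5 with fraction F4 of the same vehicle mouse. The members were chosen by their labels, as the F4 and F5 libraries of the 3 vehicle mice, which gave 6 of the 30 samples of the series. The mice were female C57BL/6 animals of 8 to 10 weeks, labelled WT, read here as wild type, in the titles of all assigned libraries of both treatments. The vehicle mice were moved from standard chow to the semi-purified diet AIN93G for 1 week and gavaged with corn oil alone. The small intestine was removed 12 h later, and RNA of each EDTA fraction was read as 3′-end counts per gene. The other libraries used beside them were F1 to F3 of the same mice and 14 libraries of 3 mice given 10 µg of ICZ, short for indolo[3,2-b]carbazole, which activates the aryl hydrocarbon receptor, in the same oil on the same diet. Each fraction of 1 mouse gave 1 library, and a fraction holds whatever cells EDTA had loosened by then. The labels do not say which part of the villus or crypt a fraction holds.

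EDTA removes the calcium that holds epithelial cells to each other and to the matrix, so sheets come off the villus first and crypts, which sit deepest, come off late. Cells kept longer in the buffer are also kept longer away from their matrix and blood supply. Immediate early genes, such as those of the FOS, JUN, EGR and NR4A families, are switched on within minutes of such a disturbance without new protein synthesis. Heat shock chaperones, by contrast, follow the load of unfolded protein.

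Gene counts summed to 5551886 to 7127127 reads per library in these 6, which detected 18260 to 20136 genes each. Both epithelial markers checked were high in all 6. Epcam, the epithelial adhesion molecule, lay at 1173 to 1307 CPM (reads scaled to a common library size) in F4 and at 1063 to 1344 CPM in F5. Vil1, the villin of the brush border, lay at 621 to 937 CPM in F4 and at 498 to 823 CPM in F5. Transcripts of the mitochondrial genome took 37.5% of gene reads in F5 of mouse 1 and 21.8% to 27.6% in the other 5 libraries.

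One library stood apart. The F5 library of mouse 3 held transcripts of exocrine pancreas, which makes digestive enzymes and lies against the duodenum. The 9 pancreas genes listed summed to 14.3, 12.0 and 14.5 CPM in F4 of mice 1, 2 and 3, to 12.7 and 11.2 CPM in F5 of mice 1 and 2, and to 1889 CPM in F5 of mouse 3. The level of about 11 to 15 CPM in the other 5 libraries was nearly all Cela1, an elastase that gut tissue also makes. Ctrb1, the chymotrypsinogen, had 3387 reads in F5 of mouse 3 and 0 to 3 reads in each of the other 5. Counts of called genes and list medians are therefore also given without that library where they moved most.

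Between F4 and F5 only 9 genes rose past the adjusted threshold, among them Vcl, Edn1, Plk3 and the immediate early gene Nr4a1. With the mouse as a block, edgeR's quasi-likelihood test called 9 of 13164 genes higher in F5, which is 0.0684% of genes tested, and none lower. At an unadjusted p under 0.05, 429 genes were higher (3.26%) and 525 lower (3.99%). That split turned with the scaling, to 537 higher and 347 lower with upper quartile factors, and was 882 higher and 652 lower without the F5 library of mouse 3. For 7 of the 9 genes no F5 library lay below any F4 library, and all 9 were higher in F5 in all 3 mice. The 9 were chosen by their step in these same libraries, which favours both traits, so neither adds support to the calls. The shares of all 13164 genes with these traits are not given. The nearest gene in the lower direction, named here after its value was seen, was Neurl1b, at 115, 132 and 113 CPM in F4 and at 64.5, 74.5 and 71.9 CPM in F5 (adjusted p = 0.0637). DESeq2 called 30 higher and 1 lower, and limma voom 15 higher and 1 lower, and both called all 9 again. Without the mouse block edgeR called 1 gene, Vcl.

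Vcl showed the smallest p. It encodes vinculin, which couples integrins and cadherins to the actin cytoskeleton, and lies at chr14:20929398-21033676 on the plus strand of GRCm38. Its level was 5.73, 6.82 and 5.64 CPM in F4 of mice 1, 2 and 3 and 19.0, 26.2 and 18.7 CPM in F5. Every F5 library was well above every F4 library, and the 3 mice lay close together within each fraction. The log2 fold change was 1.83 ± 0.22 (SE of the fit, not of the 3 paired differences, adjusted p = 0.00123). In the earlier fractions the mean was 7.04 ± 1.67 CPM in F1, 6.23 ± 0.956 CPM in F2 and 4.97 ± 0.996 CPM in F3 (SD, n = 3), so no earlier fraction had a mean near that of F5.

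Edn1 encodes the precursor of endothelin-1, a peptide that contracts vessels and is made by many epithelia (chr13:42301476-42307990, plus strand). It lay at 10.5, 19.3 and 16.8 CPM in F4 and at 34.2, 44.7 and 45.4 CPM in F5. The groups did not overlap, and mouse 1 was the lowest in both fractions. The log2 fold change was 1.44 ± 0.20 (adjusted p = 0.00648). Plk3, a polo-like kinase of the stress response (chr4:117128655-117133963, minus strand), went from 2.67, 6.56 and 6.97 CPM to 22.6, 24.1 and 17.8 CPM. Mouse 1 started lowest and rose most, and the log2 fold change of Plk3 was 2.04 ± 0.33 (adjusted p = 0.0253).

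Nr4a1, an orphan nuclear receptor and immediate early gene, lay at 0.763, 5.79 and 4.45 CPM in F4 and at 5.73, 17.4 and 19.7 CPM in F5. The groups met because F5 of mouse 1 was no higher than F4 of mouse 2, although each mouse rose against its own F4 (log2 fold change 2.03 ± 0.37, adjusted p = 0.0499). Ddit3 encodes CHOP, a transcription factor of the integrated stress response. It went from 24.8, 34.6 and 36.8 CPM to 60.0, 55.1 and 63.0 CPM, without overlap (0.91 ± 0.16, adjusted p = 0.0486). Dusp5, a nuclear phosphatase that switches off ERK, went from 40.3, 76.3 and 86.4 CPM to 84.7, 124 and 144 CPM. Here F5 of mouse 1 fell just below F4 of mouse 3, so the fractions overlapped although every mouse rose (0.84 ± 0.15, adjusted p = 0.0486).

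The 3 other genes are less tied to a known response. Ubald1 went from 17.2, 23.8 and 27.7 CPM to 36.7, 32.3 and 58.2 CPM (0.89 ± 0.16, adjusted p = 0.0486). Zfp131, a zinc finger transcription factor, went from 40.1, 51.4 and 53 CPM to 64.1, 80.2 and 86.8 CPM (0.70 ± 0.13, adjusted p = 0.0486). Rny3, a small noncoding Y RNA bound by the Ro protein, went from 7.06, 6.69 and 12.3 CPM to 14.9, 16.6 and 28.0 CPM (1.21 ± 0.22, adjusted p = 0.0486). None of these 3 overlapped between fractions. Y RNAs have many near-identical copies in the genome, so the count of Rny3 is uncertain.

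**Figure D1:**
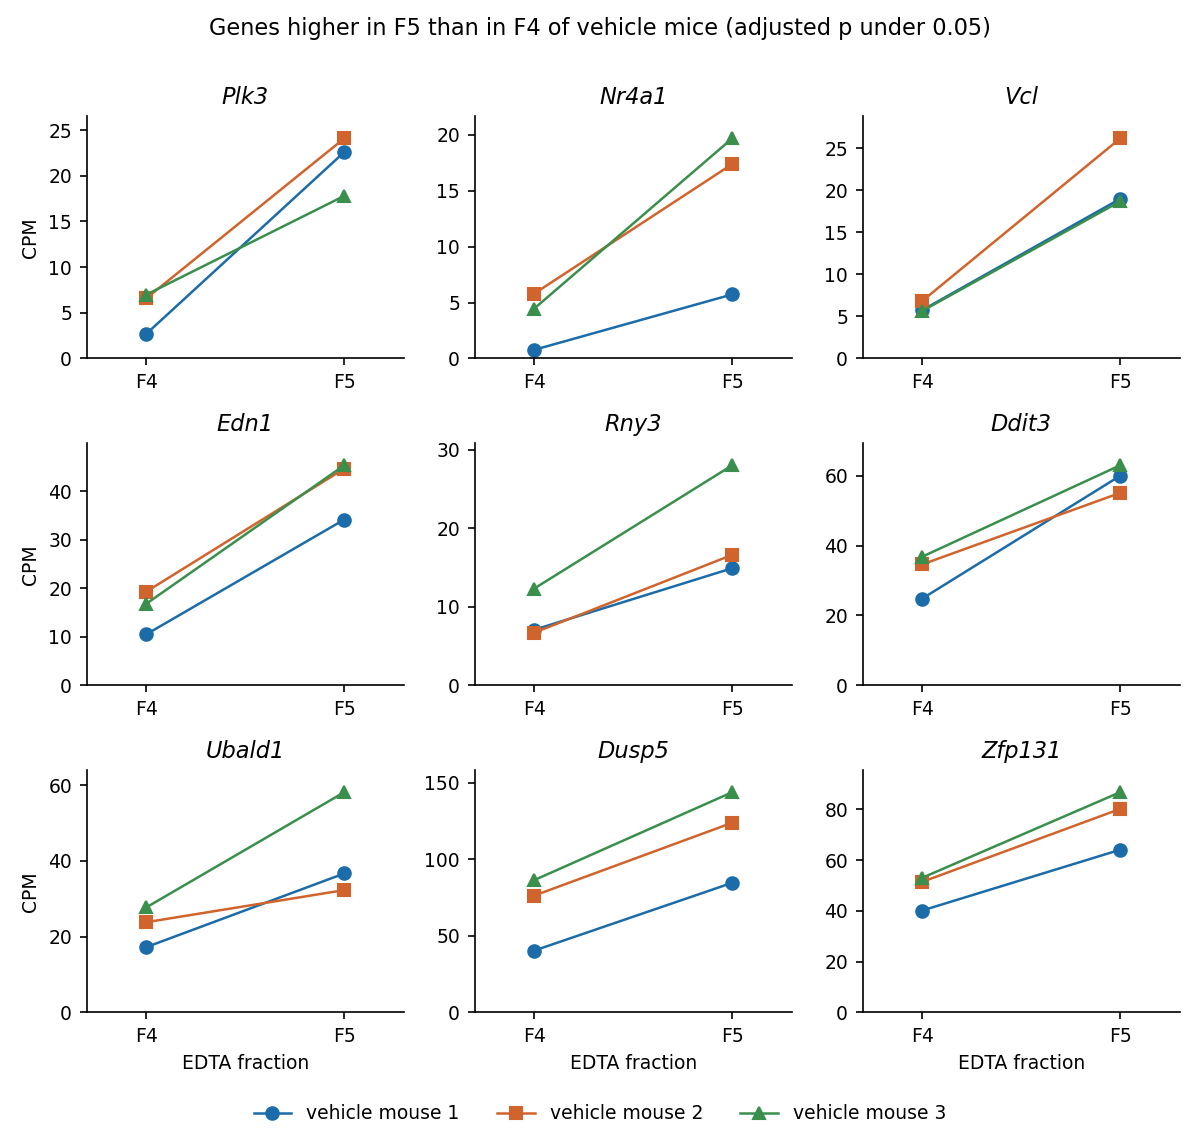
CPM (y axis, from 0) of the 9 genes past an adjusted p of 0.05 in F4 and F5 (x axis), with 1 line and symbol per vehicle mouse. All lines go up in every panel, and F4 and F5 overlap only for Nr4a1 and Dusp5. The genes were chosen for this step in the same libraries.

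How firmly these calls stood depended on the mice kept. Without mouse 2 edgeR called 0 genes (293 higher and 434 lower at an unadjusted p under 0.05), with the smallest adjusted p at 0.134, and without mouse 3 it called 1 gene, which was none of the 9. Without mouse 1 it called 9 genes, among them 3 of these, which were Vcl, Edn1 and Plk3. Without the F5 library of mouse 3 alone it called 29 higher and 2 lower, including 6 of the 9, and Nr4a1, Ubald1 and Rny3 then had adjusted p-values of 0.094, 0.102 and 0.094. In these 4 fits the fold change of Vcl lay between 1.74 and 1.89 on the log2 scale.

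The promoters of Vcl and Dusp5 carry the CArG box, the site that the serum response factor SRF reads in genes of the cytoskeleton and of the early response. They are shown here because Vcl led the test and Dusp5 is an early response gene whose box is doubled. The sequences are from RefSeq (GRCm38.p6), plus strand, 5′ to 3′. Vcl covers chr14:20929148-20929267, bases -250 to -131 from the RefSeq start, and Dusp5 covers chr19:53529025-53529108, bases -120 to -37. Capitals mark the CArG boxes and, in Vcl, also a heat shock element core.
Vcl: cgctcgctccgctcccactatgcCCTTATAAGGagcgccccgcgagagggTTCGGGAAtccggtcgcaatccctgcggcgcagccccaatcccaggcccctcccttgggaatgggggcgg
Dusp5: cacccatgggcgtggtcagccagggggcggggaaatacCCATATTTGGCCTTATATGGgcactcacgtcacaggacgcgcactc

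In Vcl the box lies at -227 to -218 and the heat shock core at -200 to -193. In Dusp5 boxes lie side by side at -82 to -73 and -72 to -63. Promoters were found for 8 of the 9 genes (not for Rny3), 9 promoters in all, and 250 bases before each start were searched on both strands. A CArG box was in 2 of these 9 promoters (22.2%) and in 1.47% of the 32851 promoters of the table. The heat shock element core TTCNNGAA was in 2, of Vcl and Edn1, and in 7.17% of all. The AP-1 site TGANTCA was in 1, of Ddit3, and in 6.75% of all. The cAMP response element TGACGTCA and the TATA box TATAAA were in none of the 9, against 1.55% and 12.4% of all. The CArG box of Vcl and the pair in Dusp5 overlap no other motif searched. Among 19 immediate early genes with promoters, the CArG box was in 2, Egr2 and Srf (5 of 25 promoters, 20%). The 9 called genes were chosen by their step in these libraries, and their share of CArG boxes rests on 2 promoters. A match of letters is a description and shows no binding.

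Immediate early transcription factors as a group lay above F4 in F5. Of the 26 listed, 23 could be tested, and all 23 had a positive fold change, with a median of 0.65 on the log2 scale. Over all genes tested 49.2% were positive and the median was -0.01. Only Nr4a1 passed the adjusted threshold, and 17 of the 23 had an unadjusted p under 0.05, against 3.26% of all genes in that direction. By mouse the median was 0.98, 0.34 and 0.70 in mice 1, 2 and 3, and the median of fold changes was 1.01 without mouse 2. Of the 3 members not tested, Jund and Egr2 are listed at 0 in all 6 libraries, and Egr3 fell below the filter.

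Among AP-1 subunits, Fos lay at 242, 469 and 503 CPM in F4 and at 477, 594 and 741 CPM in F5. Jun, its partner, lay at 352, 863 and 825 CPM in F4 and at 803, 1036 and 1388 CPM in F5. For both, F4 of mouse 1 was the lowest library and every mouse was higher in F5, but the fractions overlapped (log2 fold change of Jun 0.75 ± 0.15, adjusted p = 0.074). Fosl1, a FOS relative induced by sustained ERK signalling, lay at 0, 0.257 and 2.37 CPM in F4 and at 3.22, 5.06 and 9.16 CPM in F5. Its fractions did not overlap, and its fold change of 3.03 ± 0.59 (adjusted p = 0.0637) rests on few reads in F4. Atf3, a stress-induced repressor of the ATF family, lay at 51.3, 154 and 218 CPM in F4 and at 248, 330 and 457 CPM in F5. No F5 library of Atf3 lay below an F4 library.

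Among the other members, Nr4a2 lay at 11.5, 31.0 and 46.0 CPM in F4 and at 36.9, 62.3 and 71.7 CPM in F5 (1.06 ± 0.20, adjusted p = 0.0637). Egr1, a zinc finger factor induced through SRF, lay at 175, 534 and 565 CPM in F4 and at 503, 674 and 945 CPM in F5. Klf6 lay at 313, 389 and 345 CPM in F4 and at 510, 512 and 539 CPM in F5, without overlap. The members with the smallest fold changes were Ier3 at 0.09, Klf10 at 0.11 and Junb at 0.18, each higher in 2 of the 3 mice. For most members mouse 1 had the lowest F4 level and the largest step.

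**Figure D2:**
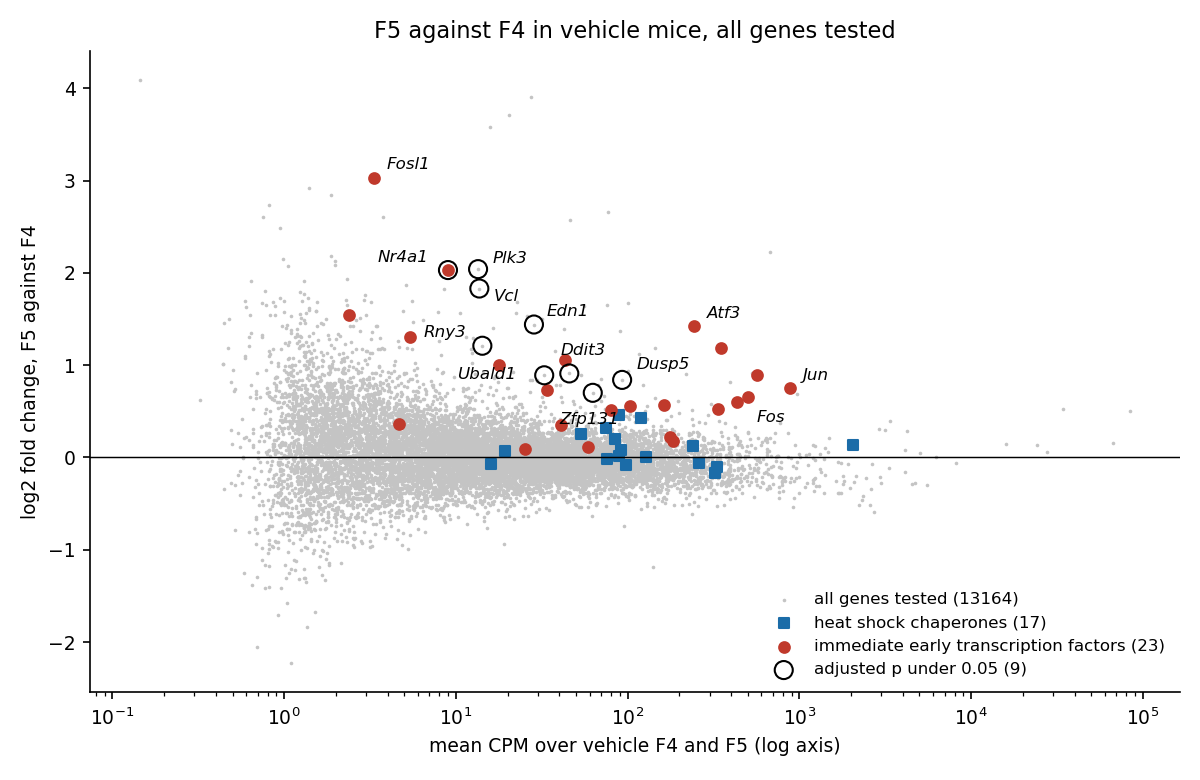
Log2 fold change F5 against F4 (y axis) by mean CPM over vehicle F4 and F5 (x axis, log scale) for 13164 genes, with immediate early transcription factors in red, heat shock chaperones in blue and the 9 genes past an adjusted p of 0.05 ringed. All 23 red points lie above 0, while the 17 blue points scatter about it.

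The immediate early list differed between fractions before the last step as well. Its summed level was 1447, 1761 and 2210 CPM in F1 of mice 1, 2 and 3. In F2 it was 1134, 1168 and 1615 CPM and in F3 1199, 1459 and 1663 CPM, so F1 lay above both in each mouse. It was 1972, 3993 and 4041 CPM in F4 and 3998, 5202 and 6361 CPM in F5. Every mouse was higher in F5 than in F4, and F4 was already above F1, F2 and F3 of the same mouse. Fosb shows this in 1 gene, with means of 59.2, 34.5 and 46.3 CPM in F1, F2 and F3, then 95.0, 262 and 323 CPM in F4 and 354, 439 and 621 CPM in F5. The parts of time in the buffer and of the cells released were not tested.

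The list of MAPK and NF-kB feedback genes holds dampers of these signals, such as the DUSP and Sprouty genes. It also holds chemokines and other response genes, and Dusp5 was its only called member. Of 23 listed, 21 were tested and 16 were positive (49.2% of all genes). The median was 0.28 (0.13 without mouse 1), and 5 had an unadjusted p under 0.05 (3.26% of all genes in that direction). Zfp36, which speeds the decay of early response mRNAs, lay at 117, 193 and 163 CPM in F4 and at 214, 266 and 220 CPM in F5. It did not overlap and missed the threshold (0.61 ± 0.12, adjusted p = 0.0637). Dusp1, a phosphatase of p38 and JNK, lay at 25.4, 74.0 and 77.9 CPM in F4 and at 69.1, 83.8 and 108 CPM in F5, with most of the step in mouse 1.

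Ligands of the EGF receptor, which epithelial cells release when a sheet is broken, were mostly higher. Areg, amphiregulin, lay at 43.5, 58.9 and 48.4 CPM in F4 and at 87.4, 109 and 70.6 CPM in F5, without overlap (0.85 ± 0.18, adjusted p = 0.118). Hbegf, heparin-binding EGF, lay at 115, 357 and 417 CPM in F4 and at 333, 460 and 671 CPM in F5 (0.82 ± 0.22, adjusted p = 0.352). Of the 12 genes of EGFR ligands and matrix adhesion, 9 were tested and 8 were positive (49.2% of all genes), with a median of 0.67. An unadjusted p under 0.05 was found for 2 (3.26% of all genes in that direction), and none passed the adjusted threshold. The median was 0.20 over the 6 genes with a mean of at least 5 CPM and 0.16 over all 12 with no filter, and by mouse it was 0.17, 0.65 and 0.34. Tgfa, another ligand, was near 0 on the log2 scale (0.04).

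Targets of SRF and YAP in the cytoskeleton were led by Vcl, with 10 of 12 tested positive (49.2% of all genes) and a median of 0.24. Without mouse 2 the median was 0.05, with 8 of 12 positive. Thbs1, a matrix glycoprotein induced by both factors, lay at 0.573, 0.772 and 1.78 CPM in F4 and at 3.04, 5.85 and 10.4 CPM in F5. It did not overlap and missed the threshold (2.61 ± 0.55, adjusted p = 0.0951). Cyr61, also named Ccn1, lay at 8.97, 33.1 and 20.3 CPM in F4 and at 18.4, 32.1 and 28.6 CPM in F5, higher in 2 of the 3 mice. The list's summed level, which the abundant actins dominate, moved by -0.24, 0.14 and -0.11 on the log2 scale in mice 1, 2 and 3, so the sum and the median of genes differed in sign in 2 mice.

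The integrated stress and unfolded protein list had Ddit3 as its called member. Of 15 tested, 10 were positive (49.2% of all genes), with a median of 0.13 (0.08 without mouse 3). Ppp1r15a, which restarts translation after that response, lay at 13.9, 43.9 and 37.4 CPM in F4 and at 39.4, 52.3 and 56.8 CPM in F5 (0.78 ± 0.24, adjusted p = 0.403). Atf4, the factor upstream of both, lay at 521, 589 and 696 CPM in F4 and at 658, 612 and 779 CPM in F5 (0.21 ± 0.12, adjusted p = 0.773). Amino acid genes under ATF4 had values on both sides of 0, with Asns at -0.11 and Trib3 at -0.20. Hspa5, the main chaperone of the endoplasmic reticulum, was at 0.21.

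Heat shock chaperones had no called member and a median of 0.07, with 11 of 17 tested positive (49.2% of all genes). Only 1, Bag3, had an unadjusted p under 0.05 (3.26% of all genes in that direction). The median was 0.24 without mouse 2 and 0.02 without the F5 library of mouse 3. Hspa1a, an inducible HSP70, lay at 24.6, 128 and 92.4 CPM in F4 and at 49.1, 107 and 133 CPM in F5 (0.46 ± 0.33, adjusted p = 0.837). Mouse 2 was lower in F5 and the fractions overlapped broadly. The mean of Hspa1a was 4.39 ± 3.32 CPM in F1, 6.76 ± 5.80 CPM in F2 and 22.7 ± 15.2 CPM in F3 (SD, n = 3), so its level in F4 was already far above that of the first fractions. Hspa1b, a near-identical copy that may share reads with it, lay at 31.5, 131 and 86.2 CPM in F4 and at 48.7, 100 and 108 CPM in F5.

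Other stress lists had no called member. Hypoxia and glycolysis genes were positive in 7 of 13, near the share of all genes (49.2%), with a median of 0.11 (0.05 without mouse 1). Their summed level was lower in F5 of every mouse, at 1252, 1122 and 1011 CPM in F4 and 1102, 1089 and 877 CPM in F5. Ldha, lactate dehydrogenase, makes up most of that sum and lay at 988, 767 and 734 CPM in F4 and at 825, 746 and 574 CPM in F5 (-0.20 ± 0.12, adjusted p = 0.792). Pdk1, which holds back pyruvate oxidation, was also lower in all 3 mice (-0.27 ± 0.16, adjusted p = 0.782). Vegfa, the vessel growth factor of that list, lay at 38.6, 27.8 and 29.7 CPM in F4 and at 61.2, 48.6 and 38.7 CPM in F5, without overlap (0.66 ± 0.19, adjusted p = 0.356). Genes of p53 and apoptosis were positive in 9 of 12 with a median of 0.11, which was 0.05 without mouse 1 and 0.07 without mouse 2. Splicing factors of the SR family and their CLK kinases, which respond to cooling and transcription stress, were positive in 16 of 16 with a median of 0.25. Over all genes tested 49.2% were positive. The within-mouse medians of the splicing list were 0.38, 0.06 and 0.19 in mice 1, 2 and 3, and without mouse 1, 13 of 16 were positive (median 0.16). Clk1 lay at 126, 179 and 201 CPM in F4 and at 221, 214 and 252 CPM in F5 (0.48 ± 0.12, adjusted p = 0.21). Nuclear retained RNAs were positive in 4 of 4 tested, with Neat1 at 128, 77.2 and 72.0 CPM in F4 and at 153, 211 and 93.4 CPM in F5. The sum of that list moved by 0.34, 0.46 and -0.06 on the log2 scale in mice 1, 2 and 3.

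Whether F5 merely continued a trend was tested by setting the F4 to F5 step against the mean of the 3 steps from F1 to F4. In that test 1 of 13164 genes (0.0076%) was called, which was Vcl, with a difference of 1.90 ± 0.27 on the log2 scale (adjusted p = 0.0162). The other 8 called genes had positive differences of 0.49 to 1.77 that missed the threshold. This test shares the F4 and F5 libraries with the comparison above and adds no independent samples. Against the F3 to F4 step alone, or the mean of the steps from F2 to F4, the test called 0 genes (525 and 869 at an unadjusted p under 0.05), and Vcl had differences of 1.55 and 1.86 with adjusted p-values of 0.992 and 0.0899. Without mouse 2 or mouse 3, Vcl had adjusted p-values of 0.999 and 0.319 in this test, at differences of 1.80 and 2.02.

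Lists of the crypt base and of the villus tip differed in direction between mice over this step, while goblet cell and lower villus antimicrobial sums were lower in F5 of all 3. Stem cell genes of the crypt base summed to 752, 1552 and 1273 CPM in F4 and to 734, 1046 and 1540 CPM in F5. Mouse 1 was nearly level, mouse 2 was lower and mouse 3 was higher, whereas from F1 to F4 the sum had been higher in each later fraction in all 3 mice. The 21 tested members had 5 positive values (49.2% of all genes) and a median of -0.11. Of them edgeR called 0 at an adjusted or an unadjusted p under 0.05. Lgr5, the receptor that marks these stem cells, lay at 8.02, 14.8 and 15.6 CPM in F4 and at 8.24, 10.4 and 16.3 CPM in F5.

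Proliferation genes followed the same order, with 14 of 28 positive (49.2% of all genes) and within-mouse medians of 0.05, -0.42 and 0.28. Without mouse 2, 27 of 28 were positive (median 0.21), and without the F5 library of mouse 3, 3 of 28 were (median -0.22). Paneth cell genes, which arm the crypt base with defensins and lysozyme, summed to 8890, 15650 and 16526 CPM in F4 and to 6780, 8699 and 18991 CPM in F5. All 12 tested members had negative fold changes (median -0.34), but mouse 3 was higher in F5. Only 1 member, Defa26, had an unadjusted p under 0.05 (3.99% of all genes in that direction). Lyz1 lay at 1629, 3119 and 3192 CPM in F4 and at 1191, 1568 and 3422 CPM in F5 (-0.42 ± 0.28, adjusted p = 0.817). Defensin genes are near-identical copies, so their counts are uncertain.

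At the other end of the axis, villus tip genes summed to 2287, 1324 and 1208 CPM in F4 and to 2001, 2307 and 1032 CPM in F5, so that mouse 2 alone was higher. Ada, adenosine deaminase, shows the same in 1 gene, at 86.8, 36.1 and 27.7 CPM in F4 and at 68.0, 291 and 26.9 CPM in F5. Interferon response genes and MHC class II genes had the same split, with within-mouse medians of 0.78 and 0.77 in mouse 2 and negative medians in mice 1 and 3. Without mouse 2 the villus tip median was -0.23 in place of 0.16, the stem cell median 0.12 in place of -0.11 and the Paneth cell median -0.05 in place of -0.34. Without the F5 library of mouse 3 these 3 medians were 0.44, -0.28 and -0.62. F5 of mouse 2 thus held more transcripts of the villus tip and fewer of the crypt than F4 of that mouse. In bulk RNA, fewer cells of a type and less RNA per cell cannot be told apart.

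**Figure D3:**
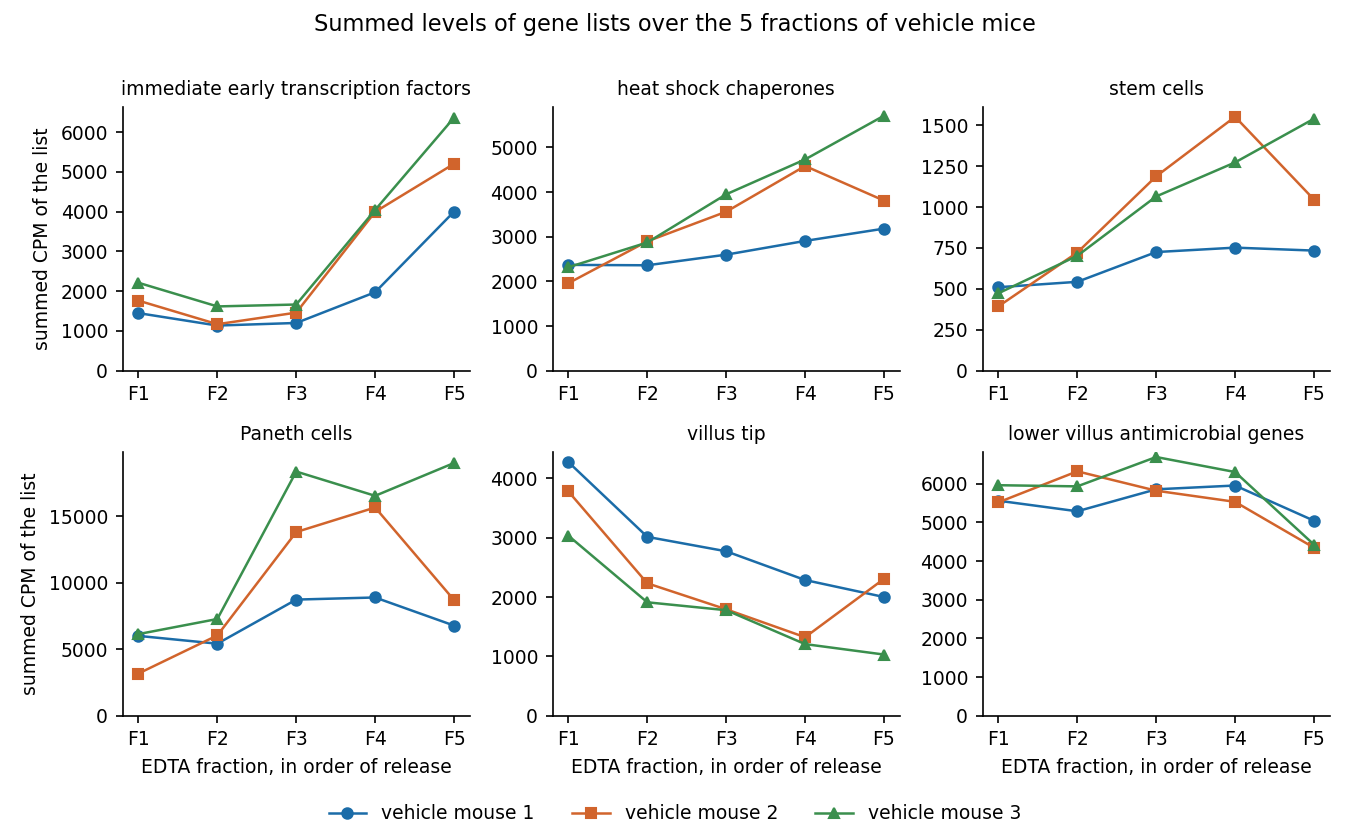
Summed CPM (y axis, from 0) of 6 gene lists over fractions F1 to F5 (x axis), with 1 line per vehicle mouse. From F4 to F5 the immediate early list is higher in all 3 mice, stem cell, Paneth cell and villus tip lists split by mouse, and the lower villus antimicrobial list is lower in all 3.

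Antimicrobial genes of the lower villus were lower in F5 of all 3 mice. Their sum was 5955, 5533 and 6304 CPM in F4 and 5045, 4348 and 4427 CPM in F5, without overlap. All 9 members had negative fold changes with a median of -0.31 (-0.21 without the F5 library of mouse 3), 5 had an unadjusted p under 0.05 (3.99% of all genes in that direction), and none passed the adjusted threshold. Reg3g, a lectin that kills bacteria, lay at 460, 333 and 373 CPM in F4 and at 372, 189 and 253 CPM in F5 (-0.53 ± 0.13, adjusted p = 0.228). Il18, a cytokine made by enterocytes, lay at 243, 185 and 264 CPM in F4 and at 171, 181 and 169 CPM in F5, without overlap.

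Enterocyte genes of absorption lay mostly below F4, with 19 of 25 negative and a median of -0.20, where 49.2% of all genes were positive. Without the F5 library of mouse 3, 12 of 25 were positive and the median was -0.04, and without mouse 2 none were and it was -0.39. Fabp1, which carries fatty acids in the enterocyte, lay at 4676, 2836 and 2353 CPM in F4 and at 3077, 1731 and 1605 CPM in F5. Each mouse was lower in F5 (-0.59 ± 0.17, adjusted p = 0.336), while differences between mice kept the fractions overlapping. Goblet cell genes had 11 of 12 negative values and a median of -0.22. Without mouse 2, 4 of 12 were positive (median -0.13), and without the F5 library of mouse 3 also 4 (median -0.16). Zg16, a mucus lectin, lay at 3187, 3083 and 2828 CPM in F4 and at 2596, 2285 and 1396 CPM in F5, without overlap (-0.51 ± 0.20, adjusted p = 0.603). Muc2, the main mucin, is listed at 0 in all 6 libraries.

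**Figure D4:**
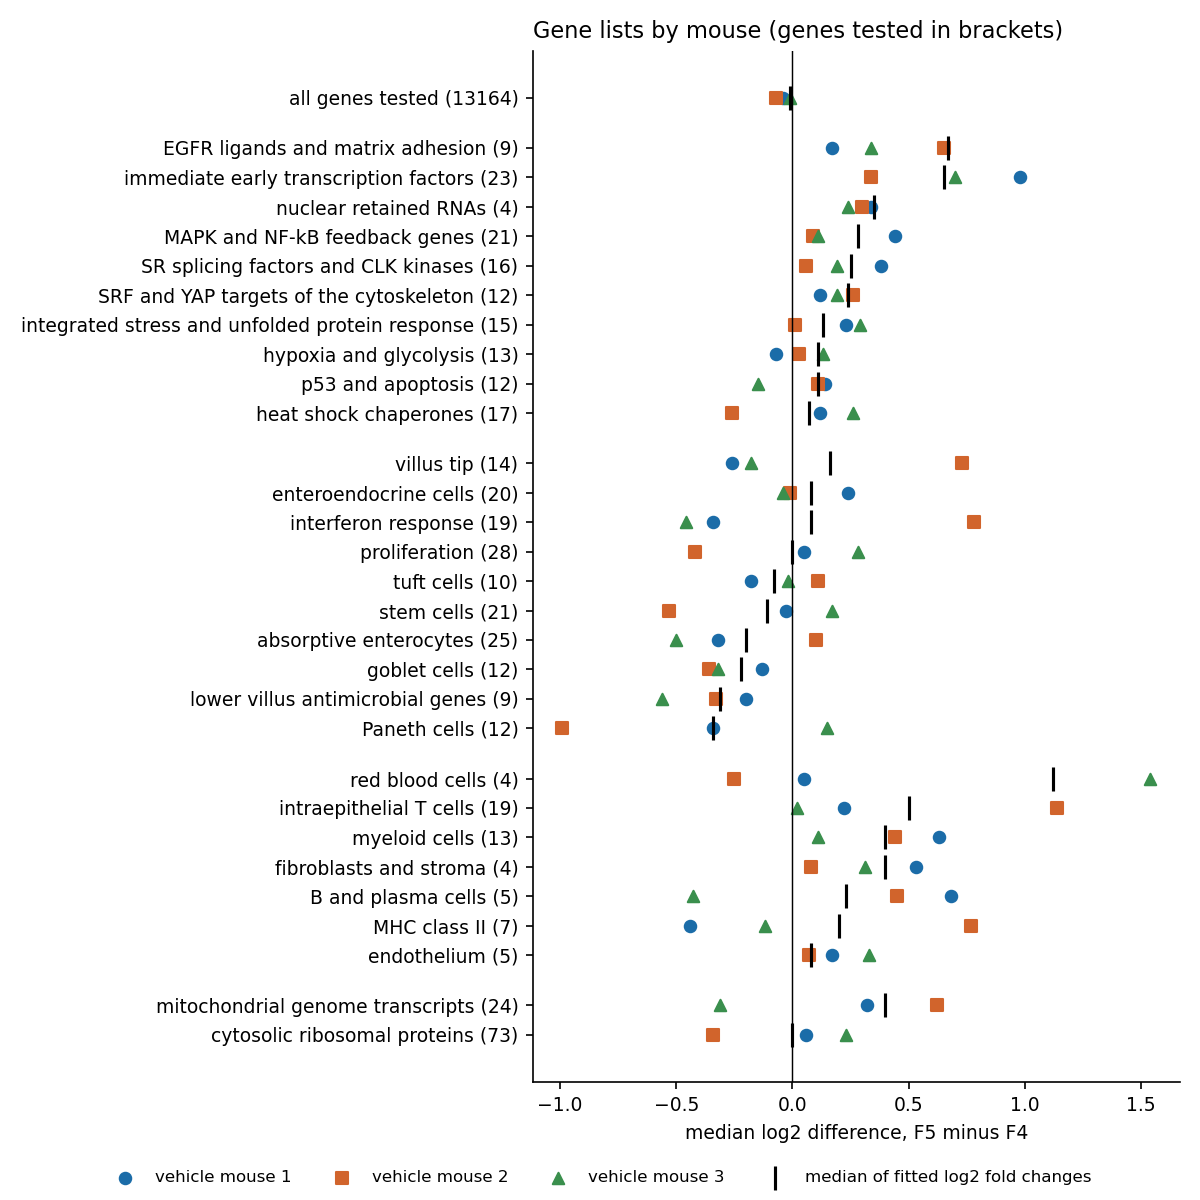
Median log2 difference F5 minus F4 (x axis) of each gene list with at least 4 genes tested (y axis, number tested in brackets), with 1 symbol per vehicle mouse and a bar for the median of fitted fold changes. Immediate early genes are above 0 in all 3 mice at 0.34 to 0.98, and stem cell, villus tip and interferon lists have mice on both sides of 0.

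Marker lists of cells other than epithelium held no called gene in vehicle mice, although several sums were higher in F5 of all 3 mice. Genes below the filter on low counts could not be called. Only 1 of 9 pancreas, 2 of 10 smooth muscle and 5 of 12 B and plasma cell genes were tested. Of the 4 mesothelium genes 0 were tested. Myeloid cell genes summed to 25.8, 28.2 and 57.7 CPM in F4 and to 32.8, 35.9 and 75.1 CPM in F5. Of 13 myeloid genes tested, 10 were positive (49.2% of all genes), with a median of 0.40. Without mouse 3 only 6 of them passed the filter, with a median of 0.20. The endothelial sum was 17, 25.0 and 22.1 CPM in F4 and 22.7, 27.0 and 29.2 CPM in F5, and that of enteric neurons and glia 4.2, 3.86 and 2.52 CPM in F4 and 6.27, 7.72 and 5.78 CPM in F5. These sums are small, and 5 of 15 endothelial and 2 of 10 neural genes passed the filter. T cell genes of the epithelium had 18 of 19 tested positive and a median of 0.50. Their sum was 398, 173 and 275 CPM in F4 and 454, 399 and 288 CPM in F5, so most of the step was in mouse 2, and the median was 0.15 without mouse 2 and 0.88 without the F5 library of mouse 3. Cd3e, a subunit of the T cell receptor complex, lay at 8.59, 4.63 and 4.60 CPM in F4 and at 13.6, 10.2 and 8.31 CPM in F5 (0.91 ± 0.41, adjusted p = 0.687). Ptprc, the pan-leukocyte marker CD45, lay at 26.1, 15.3 and 26.9 CPM in F4 and at 32.8, 24.9 and 24.4 CPM in F5.

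Plasma cell transcripts differed between mice more than between fractions. The B and plasma cell list summed to 63.4, 69.8 and 858 CPM in F4 and to 106, 94.1 and 563 CPM in F5, with Igha, the IgA heavy chain, at 500 CPM in F4 and 341 CPM in F5 of mouse 3. Red cell transcripts were high in the same mouse. Hbb-bs, a beta globin, lay at 1.15, 1.29 and 10.5 CPM in F4 and at 1.25, 0.532 and 31.6 CPM in F5. The 4 tested globin genes had a median of 1.12 with that library and -0.95 without it.

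Connective tissue and muscle were nearly absent from both fractions. Col1a1 and Col3a1, the main collagens of stroma, lay between 0 and 1.97 CPM in the 6 libraries, and 18 of the 22 stromal genes did not pass the filter on low counts. Acta2 and Actg2, the smooth muscle actins, had 0 reads in all 6 libraries and were not detectable at this depth, and Myh11, the smooth muscle myosin, had 4 reads in all. Mylk, which epithelium also makes, carried the smooth muscle sum at 383 to 607 CPM. The stromal sum was 16.2, 19.5 and 21.1 CPM in F4 and 21.3, 21.3 and 35.1 CPM in F5, highest where the pancreas transcripts were. The part of these transcripts in the 9 called genes was not tested beyond the fit without the F5 library of mouse 3.

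**Figure D5:**
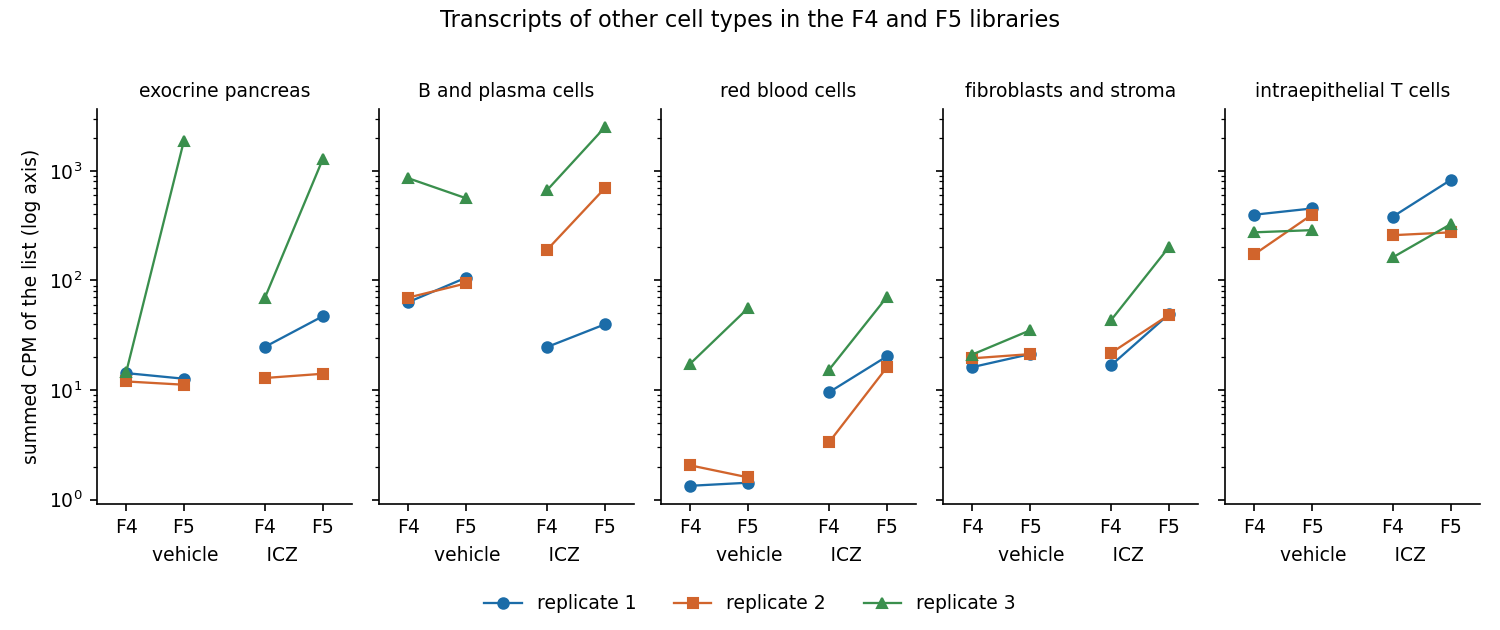
Summed CPM (y axis, log scale) of 5 marker lists of other cell types in F4 and F5 (x axis) of the vehicle and ICZ mice, with 1 line per replicate. The F5 libraries of replicate 3 in both treatments hold 1889 and 1279 CPM of pancreas transcripts, against 11.2 to 47.2 CPM in the other F5 libraries.

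Mitochondrial genome transcripts had 19 of 24 tested positive (49.2% of all genes) and a median of 0.40, with within-mouse medians of 0.32, 0.62 and -0.31. The median was 0.12 without mouse 1, 0.05 without mouse 2 and 0.73 without the F5 library of mouse 3. Leaving them out before normalization gave 9 called genes again, the same 9. Cytosolic ribosomal protein genes had 37 of 73 positive and a median of 0.00, with 57 of 71 positive without mouse 2 and 20 of 75 without the F5 library of mouse 3. The mitochondrial share differed between mice, and its part in the other results was not tested further.

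The same step in the 3 ICZ mice, which share no library with the vehicle comparison but received the ligand, was compared next. There edgeR called 26 of 13328 genes higher (0.195%) and 41 lower (0.308%). The F5 library of ICZ mouse 1 stood apart, with 53.7% of gene reads from the mitochondrial genome and 51.6% of all reads assigned to genes. Without it 65 genes were higher and 159 lower, and without the F5 library of ICZ mouse 3 edgeR called 0 (1422 at an unadjusted p under 0.05). All 9 genes called in vehicle mice had positive fold changes there, against 51% of all genes tested, and 1 of them, Rny3, was called (1.04, adjusted p = 0.038). Without the F5 library of ICZ mouse 1, Rny3 and Ubald1 were called, and without that of ICZ mouse 3, 8 of the 9 were positive (Zfp131 at -0.10) and none was called. Vcl had a mean of 4.96 ± 0.407 CPM in F4 and 10.1 ± 4.81 CPM in F5 of ICZ mice (SD, n = 3), with within-mouse steps of 0.56, 0.36 and 1.73 on the log2 scale (adjusted p = 0.189). Ddit3, Dusp5 and Zfp131 were near 0 there, at 0.10, 0.20 and 0.08. For the immediate early list the ICZ median was 0.27, with 21 of 23 positive and no gene called. Its summed level moved by 0.66, -0.15 and 0.35 on the log2 scale in ICZ mice 1, 2 and 3. In ICZ mouse 2 it was thus lower in F5, at 3326 CPM in F4 and 2988 CPM in F5.

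Whether the step itself differed between treatments was tested as an interaction over all 29 assigned libraries. It called 3 of 14067 genes (0.0213%), all lower in ICZ mice and all pancreas enzymes read only in F5 of mouse 3 among the 6 vehicle libraries. None of the 9 genes passed it, at differences of -1.37 to -0.19 (adjusted p = 1 for each). Of the 9, 5 had an unadjusted p under 0.05 in this interaction test, which were Plk3, Edn1, Ddit3, Zfp131 and Vcl. The 9 were chosen for a high step in the same vehicle libraries, which favours a negative difference here. A difference between treatments was thus not shown for any of them, nor was its absence.

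When the step was averaged over all 6 mice, in a fit chosen after seeing the data, 109 of 14067 genes were higher (0.775%) and 242 lower (1.72%). This fit shares its 6 vehicle libraries with the comparison above. It called 7 of the 9 genes, with Vcl at 1.41 ± 0.19 (adjusted p = 0.000134) and Plk3 at 1.36 ± 0.22 (adjusted p = 0.000767), and missed Ddit3 (adjusted p = 0.0605) and Dusp5 (adjusted p = 0.121). Without the F5 library of ICZ mouse 1 it called 75 higher and 146 lower with 7 of the 9, and without both F5 libraries of replicate 3 it called 110 higher and 117 lower with 6 of the 9, Zfp131 then having an adjusted p of 0.105. It also called 4 further immediate early genes higher. These were Fosl1 at 2.39, Maff at 0.72, Nr4a2 at 0.66 and Fosl2 at 0.38, and Fosl1 and Fosl2 were higher in F5 in all 6 mice. Without both F5 libraries of replicate 3, Fosl2 was still called, while Fosl1, Nr4a2 and Maff had adjusted p-values of 0.0526, 0.0722 and 0.129.

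In the same fit Thbs1 rose by 2.09 and Tra2b, a splicing regulator, by 0.41 on the log2 scale, both higher in all 6 mice. Without both F5 libraries of replicate 3 the adjusted p of Thbs1 was 0.0828. Of 25 enterocyte genes 5 were called lower, against 1.72% of all genes. Fabp1 decreased by 0.72 (adjusted p = 0.00061) and Fabp2 by 0.61 (adjusted p = 0.00171), and both were lower in F5 of all 6 mice. These were called in both fits with libraries left out, whereas Mttp, Slc2a5 and Dgat2 had adjusted p-values of 0.252, 0.129 and 0.0723 without the F5 libraries of replicate 3. Of the antimicrobial list 3 of 9 were called lower, with Reg3b at -0.52, Il18 at -0.42 and Reg3g at -0.34. Reg3g was higher in F5 of 1 ICZ mouse and had an adjusted p of 0.183 without the F5 library of ICZ mouse 1. Il18 and Reg3b had adjusted p-values of 0.155 and 0.0724 without both F5 libraries of replicate 3. The fit also called 4 stromal and 6 pancreas genes higher, none of them without these 2 libraries. The stromal sum in ICZ mice was 16.8, 21.8 and 43.4 CPM in F4 and 49.1, 48.4 and 201 CPM in F5, and the pancreas sums of both F5 libraries of replicate 3 are given above.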

How the data were processed

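The deposited table holds read counts per gene, which the authors made from 3′-end libraries. Per the submitters' processing notes the tools were FastQC 0.11.2, BWA 0.7.17-r1188, SAMtools 1.10 and HTSeq 0.11.2 with the builds GRCm38.p6 and mm10. For strand setting, annotation release and molecular identifiers the answer is not given in the sources used here, so reads of overlapping or antisense genes cannot be told apart. The table's 5 summary lines that name no gene were left out. In the 6 libraries they held 10.8% to 13% of reads without a feature, 3.67% to 4.13% ambiguous, 21% to 24.5% of low quality and 2.73% to 6.37% unaligned, and 56.1% to 59.2% of reads were assigned to genes. The table has 1 column of no assigned sample, which was not used.

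Counts were tested in R 4.3.3 with edgeR 4.0.16 (quasi-likelihood, TMM factors, its default filter on low counts, robust fit), with the mouse as a block over the 15 vehicle libraries and Benjamini-Hochberg adjustment over all genes tested. Every adjusted p is from this test unless another tool is named. The ICZ step was fitted over its 14 libraries and the interaction over all 29. DESeq2 1.42.0 and limma 3.58.1 were alternatives. CPM uses TMM library sizes over the 29 libraries, and within-mouse differences are of log2 CPM with a prior count of 2. The fits were also run on simulated counts with the same dispersion for every gene and no library that stood apart. That run therefore does not cover libraries such as F5 of mouse 3.

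The members and gene lists (34) were chosen with earlier results of these data known. Genes were named by rule: up to 12 per direction past an adjusted p of 0.05 with a mean of at least 5 CPM and the same direction in 3 mice, up to 4 of smallest p per list, defining markers, up to 8 from the test against the earlier steps and up to 5 from the interaction. Further list members were chosen after their values were seen.

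F4 and F5 with the same number were taken to share 1 animal, as their titles carry the same prefix and replicate number. Mice 1, 2 and 3 are titled WT1, WT3 and WT4 in vehicle and WT2, WT3 and WT4 in ICZ. WT3 and WT4 of the 2 treatments were read as different animals. Their deviations from the fraction means correlated at 0.436, -0.002 and 0.415 across genes in mice 1, 2 and 3. F4 of mouse 2 correlated more with F5 of mouse 3, at 0.174, so these values do not show the pairing of mouse 2. Depth was 5551886 to 7127127 gene reads, and replicate libraries of a group differed by more than sampling noise. With 3 mice an exact sign-flip test of 1 value cannot go below p = 0.25, so none is given.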

Additional observations from a re-analysis of the deposited data

Results flagged for a closer look

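The F4 to F5 step of 3 digestive enzyme genes differed between treatments in the interaction test. The ICZ minus vehicle difference was -8.40 for RP23-37C14.2 (chr6:41030268-41035509, minus strand), -8.04 for Prss2 (chr6:41521787-41525079, plus strand) and -6.99 for Cpa1 (chr6:30639218-30645363, plus strand), on the log2 scale. In vehicle mice all reads of these genes were in F5 of mouse 3, at 332, 252 and 133 CPM, and the other 5 libraries had 0 reads, so the fitted differences depend on the prior count. Without the F5 libraries of replicate 3 in both treatments the differences were 3.25, 1.90 and 3.21, with an adjusted p of 1 for each.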

How the results depend on the processing

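Limits were the 3 mice per treatment, the F5 library of mouse 3 with pancreas transcripts, and genes with few reads. For the vehicle step, with 9 genes called, the count was 31 with DESeq2 (30 higher, 1 lower), 16 with limma voom, 159 with no filter on low counts, 21 at a mean of at least 5 CPM, 1 with no replicate block, 0 to 9 leaving out each mouse, 16 with the F4 and F5 libraries only and the replicate block (2 residual degrees of freedom), 31 without the F5 library of mouse 3 and 351 as the mean over vehicle and ICZ mice (221 without the F5 library of ICZ mouse 1, 227 without both F5 libraries of replicate 3). The last fits and those leaving out single libraries or mitochondrial transcripts were chosen after seeing the data.

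For the last step against the mean earlier step, with 1 called, it was 11 with DESeq2, 199 with no filter, 0 to 6 leaving out each mouse, 0 against the F3 to F4 step, 0 against the mean F2 to F4 step and 23 without the F5 library of mouse 3. For the ICZ step, with 67 called, it was 148 with DESeq2, 385 with no filter, 34 at 5 CPM, 0 with no replicate block (1117 at an unadjusted p under 0.05), 0 to 310 leaving out each mouse, 20 with F4 and F5 only, 224 without the F5 library of ICZ mouse 1 and 0 without that of ICZ mouse 3 (1422 unadjusted).

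For the interaction, with 3 called, it was 0 with DESeq2, limma voom, 5 CPM, no replicate block and without both F5 libraries of replicate 3 (326, 393, 247, 255 and 623 unadjusted), 30 with no filter and 0 to 7 leaving out each replicate. Without those libraries the 3 enzyme genes reversed, to 3.25 for RP23-37C14.2, 1.90 for Prss2 and 3.21 for Cpa1, against -9.07, -8.71 and -7.66 without replicate 2 of both treatments. In the mean over all mice without both F5 libraries of replicate 3, Zg16 and Fcgbp were at 0.00 and 0.08, against negative values in vehicle mice. Of 821 values of 53 single-gene results under alternatives, 681 kept direction and side of the threshold, 59 lost the call, 76 gained it and 5 reversed. The cause was not tested.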
